A study of Mus musculus with 16 samples.

Results

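Transcript levels in the hearts of 4 aged Hap-I mice that received no western diet were compared with those in the hearts of 4 younger, adult Hap-I mice whose sample labels place them on a western diet. These 8 hearts are part of a set of 16, the others being 5 hearts of aged Hap-I mice on the western diet and 3 hearts of adult C57 mice. Every animal has the C57/BL6 strain background by its label. Hap-I mice carry haplotype I of the human gene for the angiotensin II type 1 receptor and, by the series title, overexpress that receptor; all 8 mice carry it, so the comparison is not one of the transgene. The labels do not name the promoter of the transgene, the ages in months, the length of the diet or the sexes. The text that describes the design, however, gives no diet for the adult Hap-I animals, whereas all 4 of their sample labels give one. The sample labels were followed here, so age and diet differ together between the groups and cannot be told apart. If the design text were right, diet would not be among the differences between the groups. RNA was polyadenylated RNA selected by pull-down for a strand-preserving library. Of 30153 genes in the table, the 11415 with at least 1 TPM in at least 3 of the 16 hearts were tested. TPM values are abundances per transcript length on a common total per library; they were divided here by a scaling factor per heart and are called scaled TPM below. Where 4 values stand against 4 others, the first are the aged hearts and the second the adult western-diet hearts, each from replicate 1 to replicate 4.

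The adult heart burns mainly fatty acids and uses glucose and ketone bodies as well. Nuclear receptors of the PPAR family, which bind fatty acids, raise the genes of fat uptake and burning when fat supply is high, and pyruvate dehydrogenase kinases then hold back the use of glucose. Heart muscle cells also keep a circadian clock, in which the pair of activators Arntl (Bmal1) with Clock or Npas2 drives its own repressors and a set of output factors, and fasting, feeding and the hour of the day all move these genes. Western diets used in mice supply much fat together with sugar.

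Of the 11415 genes, 143 (1.25%) were called higher and 101 (0.885%) lower in the aged hearts, 244 (2.14%) in all, at a Benjamini-Hochberg adjusted p under 0.05 in a limma fit of log2(scaled TPM + 1). The median size of a called difference was 0.60 on that log2 scale, and 14 of the higher and 15 of the lower genes passed 2-fold. Values of the 2 groups did not overlap for 1826 genes (16.0%), with the aged hearts higher for 958 (8.39%) and lower for 868 (7.6%); all 244 called genes were among them. At an unadjusted p under 0.05 by limma there were 2459 genes (21.5%) in both directions together, 1319 higher and 1140 lower of the 11415. Such counts for gene lists, given below by direction, are to be set against the 1319 or the 1140. The libraries differed in ways that run, in full or in part, with the groups. Mitochondrially encoded transcripts took 35.1% ± 0.91 of the TPM in the aged hearts and 41.1% ± 3.35 in the adult western-diet hearts (SD, n = 4 each; p = 0.0286, two-sided exact permutation test, the smallest p that 4 against 4 allows). Genes with long transcripts stood higher in the aged libraries: over 11343 genes, which are not independent replicates, the difference correlated with transcript length at a Spearman rho of 0.25, the median length being 1910.5 bases for genes called higher, 977.25 for genes called lower and 1311 for the rest. Adult western-diet replicate 4 stood near the aged libraries in this respect, with a rank correlation of its deviations with length of 0.184 against -0.161, -0.254 and -0.21 in the other 3. Per library this correlation was 0.166 ± 0.124 in the aged and -0.110 ± 0.200 in the adult western-diet hearts (SD, n = 4 each), with overlap. The same permutation test gave p = 0.0857 for it, 0.0857 for the scaling factor and 0.0571 for the number of genes at 1 TPM or more. Y-linked transcripts were near 0 in adult western-diet replicates 1 and 2 and present in the other 6 hearts, for example Ddx3y at 10.7, 9.47, 12.7 and 13.1 scaled TPM in the aged and 0.0148, 0, 8.16 and 9.81 in the adult western-diet hearts. With the presence of Y-linked transcripts as a covariate 78 genes were called, 72 of them among the 244. A fit of only the libraries with Y-linked transcripts, from all groups, called 12 genes, 10 of them among the 244. Its differences rest on the 6 hearts, of which only replicates 3 and 4 are adult western-diet hearts. Its spread also draws on C57 and aged western-diet hearts. All 244 kept their direction in both fits. With a correction for transcript length 227 genes were called, 195 of them among the 244.

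**Figure D1:**
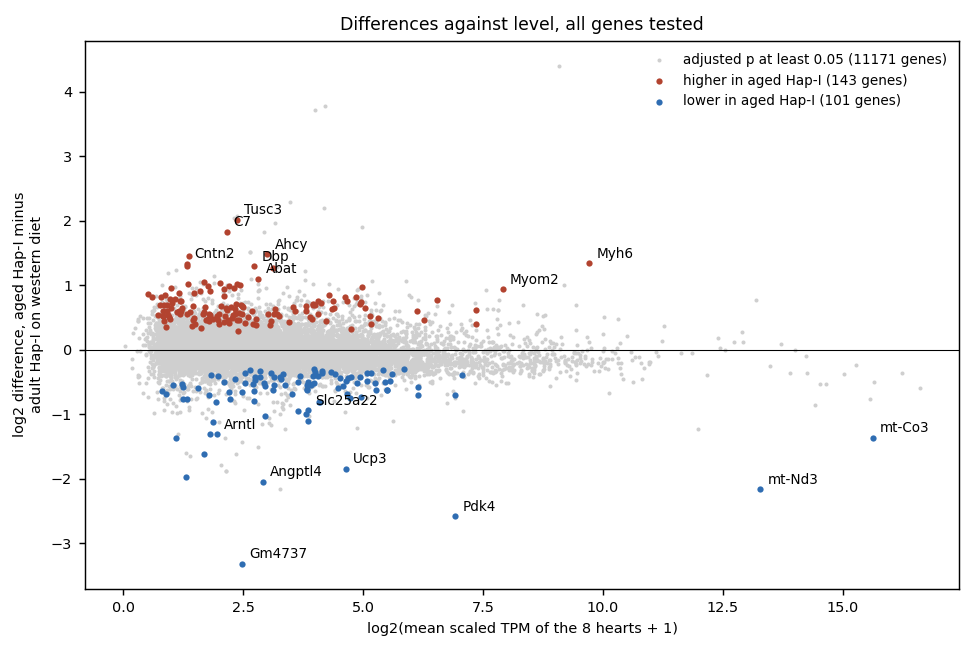
Each point is 1 of 11415 genes: the x axis is log2 of the mean scaled TPM of the 8 hearts plus 1, the y axis the log2 difference of aged Hap-I minus adult Hap-I on the western diet. The 143 genes called higher are red, the 101 called lower are blue, and genes with an adjusted p of at least 0.05 are grey; Gm4737, Pdk4, mt-Nd3 and Angptl4 lie lowest among the named points, at -3.31, -2.58, -2.16 and -2.04.

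The number of calls depends on single hearts. Leaving out 1 heart moved the count from 244 to between 38 (without aged replicate 4) and 737 (without adult western-diet replicate 4). It was 50 without aged replicate 3, 92 without aged replicate 1, 133 without aged replicate 2, and 59, 75 and 89 without adult western-diet replicates 1, 2 and 3. The genes named below number 57 with a call, and 16 of these stayed called whichever heart was left out. For each of the other 41, between 2 and 7 of the 8 omissions ended the call, and below the omission with the largest adjusted p is named; no call ended without adult western-diet replicate 4. All 57 kept their direction in every alternative that was run. With TPM as deposited, without scaling, 149 genes were called higher and 13 lower, and after removal of the mitochondrially encoded transcripts 50 and 16, and these scalings moved the median of all genes to 0.27 and 0.19. Without scaling 21 of the 57 calls ended, 16 of lower and 5 of higher genes, and after removal of the mitochondrially encoded transcripts 29. The unscaled difference is given below for the 15 of these 21 genes for which it also moved by over 1.5 times; the other 6 were Myh6, Pbxip1, Gm826, Eif3j2, Npas2 and Asns. The Y-linked covariate ended 31 of the 57 calls, the atrial markers as a covariate 10 and the length correction 7, those of Myh6, Pbxip1, Per3, Hcn4, Asns, Srxn1 and Rbm20. Among the 31 were Plin2, Lipe, Hsd17b11, Pfkfb3, Pygb, Srebf2, Per3, Bhlhe41, Tef, Myh6, Myom2, Synpo2l, Dsp, Rbm20 and Hcn4. The others were Tusc3, Gm17132, Abat, Ccn5, Entpd4, Pbxip1, mt-Co3, Gchfr, Cldn5, Klf2, Adra1b, Asns, Mfap5, Srxn1, Ccl21a and Cspg4. In the libraries with Y-linked transcripts alone 50 of the 57 calls ended, and those of Pdk4, Dbp, Nr1d1, mt-Nd3, Gnb3, Chd6 and Gm4737 stayed. A direction given below for a group of genes is relative to the median of all genes. Counts of called members of a list stand beside 1.25% of all genes called higher and 0.885% called lower.

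**Figure D2:**
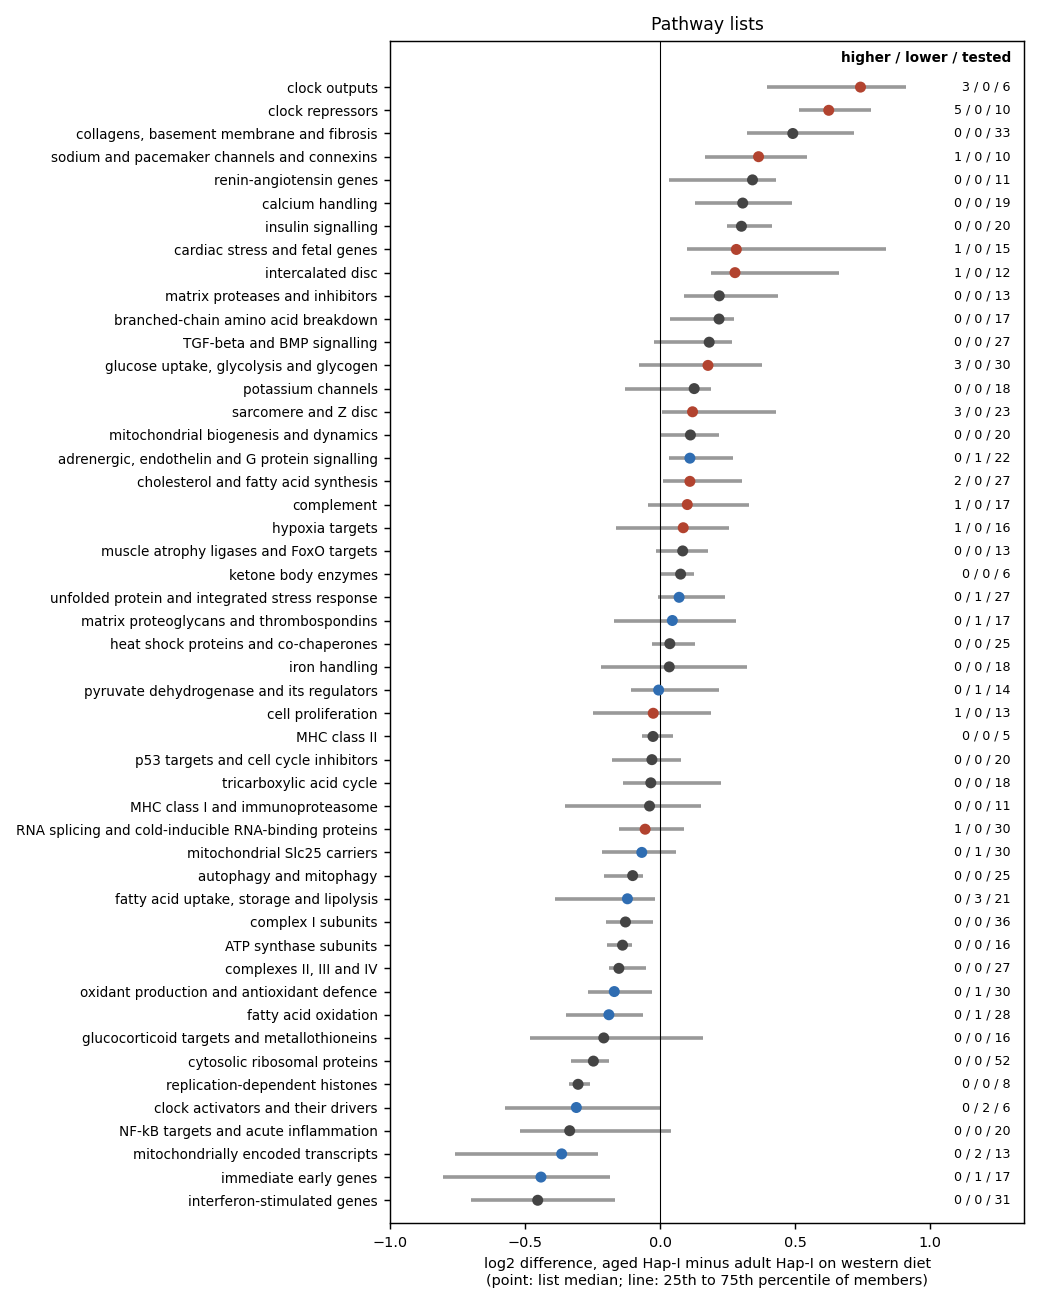
Points are the median log2 differences (aged Hap-I minus adult Hap-I on the western diet) of the tested members of 49 pathway lists, and lines run from the 25th to the 75th percentile of the members; red points have more members called higher than lower, blue points the reverse, dark grey points no called member, and the figures at the right give members higher, lower and tested. Clock outputs and repressors are at the top, at 0.74 and 0.62, and interferon-stimulated genes at the bottom, at -0.45, without a called member. Relative to all genes, the medians of 5 of these lists change sign under at least 1 other scaling: pyruvate dehydrogenase, the tricarboxylic acid cycle, both MHC lists and the mitochondrially encoded transcripts.

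Pdk4, Angptl4, Ucp3, Plin2 and Lipe, all genes of fatty acid handling or of the switch between fat and glucose, were lower in the aged hearts without the diet. The largest difference of the 5 was that of Pdk4 (chromosome 6, 5483351 to 5496309, minus strand, GRCm38), the kinase that switches off pyruvate dehydrogenase. It stood at 40.7, 33.3, 31.9 and 29.1 scaled TPM in the 4 aged hearts and at 249, 219, 162 and 199.7 in the 4 adult western-diet hearts. The groups lay far apart, with a log2 difference of -2.58 ± 0.28 (SE) and an adjusted p of 1.69e-04 by limma, 5.97-fold. The other 13 members of the pyruvate dehydrogenase list, its subunits, the other kinases and the phosphatases among them, did not pass the test, and the median of the 14 was -0.01. Angptl4 (chromosome 17, 33773750 to 33781830, minus strand), a secreted inhibitor of lipoprotein lipase and thereby of fat uptake from blood, stood at 2.97, 1.05, 1.66 and 1.64 in the aged hearts. In the adult western-diet hearts it stood at 16.5, 14.01, 8.90 and 5.32, from replicate 1 to 4, a log2 difference of -2.04 ± 0.28 (SE) (adjusted p = 0.00219). Replicate 4 of that group was the lowest of its group for Angptl4 and still above all 4 aged hearts. Ucp3 (chromosome 7, 100472990 to 100486432, plus strand), an inner-membrane carrier of mitochondria that rises with fatty acid load, stood at 10.5, 10.7, 8.36 and 9.33 in the aged and 49.8, 42.9, 33.2 and 27.2 in the adult western-diet hearts (-1.84 ± 0.27 (SE), adjusted p = 0.00347).

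Plin2 and Lipe, of lipid storage and lipolysis, fell by less. Plin2, the coat protein of lipid droplets, was at 40.95, 38.3, 33.7 and 40.03 in the aged and 56.3, 52.4, 47.4 and 59.7 in the adult western-diet hearts (-0.48, adjusted p = 0.0163; -0.14 without scaling, adjusted p = 0.581). Lipe, hormone-sensitive lipase, was at 5.66, 6.62, 5.23 and 5.75 against 10.2, 10.9, 9.59 and 7.58 (-0.63, adjusted p = 0.0174; -0.32 without scaling, adjusted p = 0.198). Both calls ended also without aged replicate 3 (adjusted p = 0.0615 and 0.0615), whereas those of Pdk4, Angptl4 and Ucp3 held in every omission. In the libraries with Y-linked transcripts alone the calls of Angptl4 and Ucp3 ended and that of Pdk4 stayed. Lipe is also a marker of white fat cells, of which Plin1 was at 0 in 7 of the 8 hearts and Adipoq between 0.10 and 4.53 in the aged and 0.112 and 0.796 in the adult western-diet hearts. The sum of all 10 markers, Lipe included, ran from 8.64 to 49.1 and from 9.39 to 18.9. Lipe alone ran from 5.23 to 6.62 and from 7.58 to 10.9, so this sum is no measure of fat cells separate from Lipe. The part of fat cells in the Lipe difference was not tested. Of the 21 members of the list for uptake, storage and lipolysis 3 were lower and none higher, with 17 of 21 differences below 0 and a median of -0.12. Of 28 members of the fatty acid oxidation list 1, Ucp3, was lower and none higher, beside 0.885% of all genes called lower. In this list 22 differences were below 0, with a median of -0.19. At an unadjusted p under 0.05 by limma 10 of the 28 were lower and 0 higher, and 6 were apart and lower and 0 apart and higher. In the list for uptake, storage and lipolysis 8 were lower and 1 higher at that level, with 4 apart and lower and 0 apart and higher. Of all genes 7.6% were apart and lower and 8.39% apart and higher. Without scaling the median was 0.16 for oxidation and 0.20 for uptake, beside 0.27 over all genes. Slc25a22, a glutamate carrier of mitochondria, was at 9.86, 8.67, 8.53 and 8.44 in the aged and 21.4, 18.01, 18.9 and 13.8 in the adult western-diet hearts (-0.93 ± 0.11 (SE), adjusted p = 8.74e-04 by limma). Without scaling it was at -0.61 (adjusted p = 0.0678). The other 29 carriers in its list were not called. Ucp3, itself a mitochondrial carrier, was counted in the fatty acid oxidation list. Hsd17b11, a dehydrogenase of lipid droplets, was at 10.9, 13.5, 10.6 and 10.2 against 30.5, 18.97, 17.2 and 17.5 (-0.81, adjusted p = 0.0152; 0.0593 without aged replicate 4; -0.49 without scaling, adjusted p = 0.149).

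Hearts outside the comparison place these levels. Pdk4 averaged 111 ± 40.05 scaled TPM (SD, n = 5) in the aged hearts on the western diet and 72.2 ± 36.7 (n = 3) in C57 hearts, between the 33.7 ± 4.95 of the aged and the 207 ± 36.2 of the adult western-diet hearts (n = 4 each). Angptl4 averaged 5.11 ± 1.37 and 4.59 ± 1.37 in these 2 groups and Ucp3 16.7 ± 5.47 and 14.5 ± 8.04. By their means the adult western-diet hearts were the highest of the 4 groups for all 3 genes and the aged hearts without diet the lowest. For Angptl4 the adult western-diet hearts, down to 5.32, overlapped the aged hearts on the diet, up to 7.34, and the C57 hearts, up to 6.17. The aged hearts on the diet and the C57 hearts overlapped for each of the 3, and for Ucp3 the C57 hearts overlapped the aged hearts without diet as well.

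**Figure D3:**
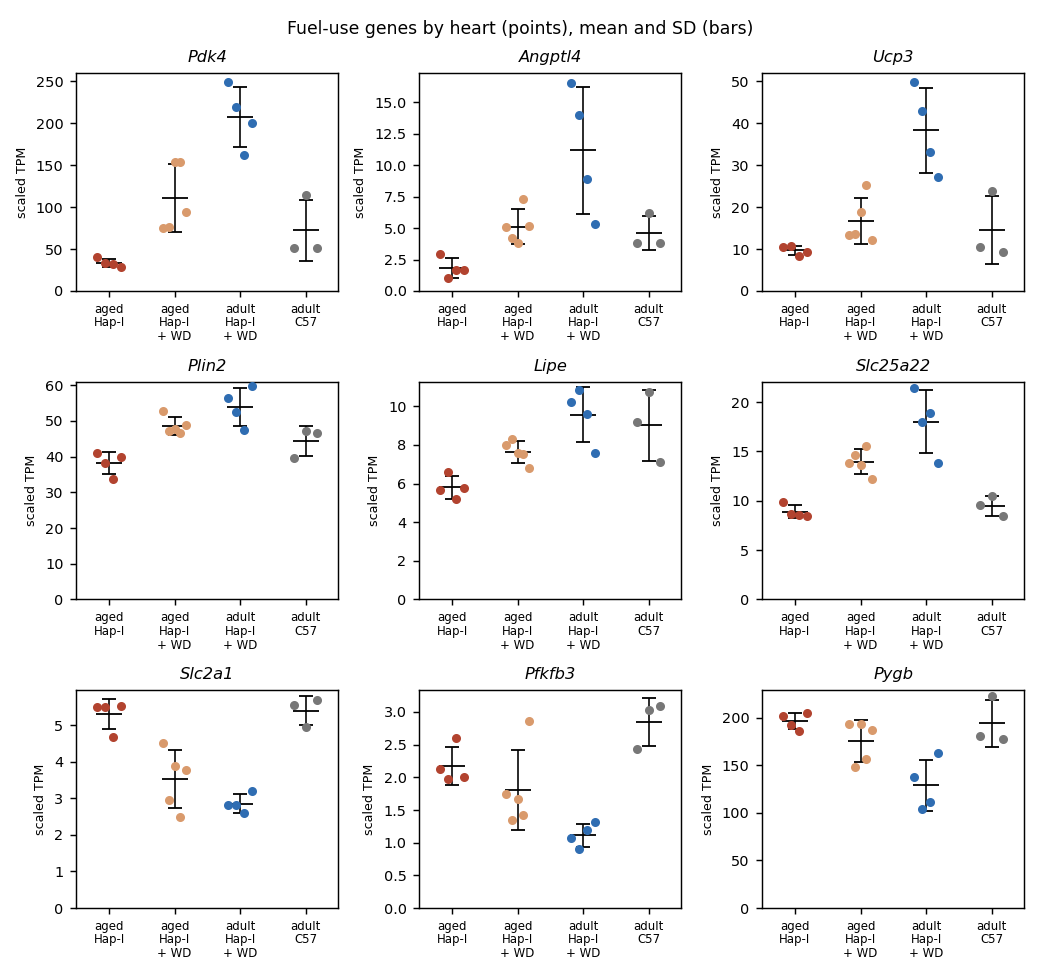
Scaled TPM (y axes, from 0) of 9 fuel-use genes in the 16 hearts by group; WD is the western diet, points are hearts, and bars give the mean and SD. Pdk4, Angptl4, Ucp3, Plin2, Lipe and Slc25a22 are lower in all 4 aged hearts without diet than in all 4 adult western-diet hearts, and Slc2a1, Pfkfb3 and Pygb are higher in all 4.

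The letters before the start sites of these genes are shown because PPAR receptors read the half-site AGGTCA in repeats. Promoters were in the table for 4 of the 5 called genes of the 3 lists (Pdk4, Ucp3, Plin2 and Lipe). In the 250 bases before the start, read on both strands, AGGTCA occurred in 2 of these 4, Ucp3 and Plin2, against 15.8% of the promoters of 27025 genes. Both stretches are from RefSeq on GRCm38.p6, written 5′ to 3′ along the gene's strand with each match in capitals; TGACCT is AGGTCA on the other strand. Ucp3 holds 2 matches (plus strand, chr7:100472812-100472982) and Plin2 holds 1 (minus strand, chr4:86670242-86670307).
Ucp3: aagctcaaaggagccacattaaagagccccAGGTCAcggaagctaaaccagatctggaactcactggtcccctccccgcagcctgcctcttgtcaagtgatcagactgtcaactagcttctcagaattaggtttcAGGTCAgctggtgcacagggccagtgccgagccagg
Plin2: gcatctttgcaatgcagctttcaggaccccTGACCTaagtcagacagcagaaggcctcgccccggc
A match describes these letters only and was not shown to be a binding site.

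Slc2a1, Pfkfb3 and Pygb, of glucose use, and Srebf2, of cholesterol supply, were higher in the aged hearts. Slc2a1, the basal glucose transporter GLUT1, was at 5.50, 5.50, 4.68 and 5.53 scaled TPM in the aged and 2.83, 2.83, 2.59 and 3.19 in the adult western-diet hearts (0.71 ± 0.12 (SE), adjusted p = 0.0104), and its call held in every omission. Pfkfb3, which makes the activator of phosphofructokinase, was at 2.13, 1.97, 2.60 and 2.01 against 1.06, 0.899, 1.19 and 1.31 (0.59, adjusted p = 0.0394), and Pygb, a glycogen phosphorylase, at 202, 193, 186 and 205 against 138, 105, 111 and 163 (0.62, adjusted p = 0.0308). The largest adjusted p of Pfkfb3 was 0.124, without aged replicate 3, and that of Pygb 0.101, without aged replicate 4; without scaling Pygb was at 0.97 (adjusted p = 0.0583). These 3 were the called members of 30 in the list of glucose uptake, glycolysis and glycogen, of which none was lower and the median was 0.18. None of 20 insulin signalling genes was called; 17 of the 20 differences were above 0 (median 0.30), and 8 had an unadjusted p under 0.05 in that direction. Among them were Insr, the insulin receptor (12.6 ± 1.13 against 8.61 ± 1.63, SD, n = 4 each; 0.51, adjusted p = 0.101), Mtor (0.59, adjusted p = 0.0913) and its partner Rptor (0.48, adjusted p = 0.0832).

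Srebf2, the transcription factor that raises the cholesterol synthesis enzymes when sterols are scarce, was at 3.32, 3.38, 3.998 and 3.51 against 2.50, 2.15, 2.27 and 2.34 (0.46, adjusted p = 0.0426; 0.136 without aged replicate 3; 0.71 without scaling, adjusted p = 0.0611). Of 27 members 2 were called higher and none lower in the list of cholesterol and fatty acid synthesis, whose median was 0.11.

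Among transcripts of the mitochondrial genome 2 of 13 were lower in the aged hearts and none higher. mt-Nd3, a subunit of complex I, stood at 3671, 4491, 2894 and 3398 scaled TPM in the aged and 19090, 19542, 12020 and 14610 in the adult western-diet hearts (-2.16 ± 0.18 (SE), adjusted p = 1.08e-05), with no overlap and a call that held in every omission. mt-Co3, a subunit of cytochrome oxidase, stood at 27073, 27394, 22005 and 31261 against 78570, 108520, 70201 and 37217 (-1.36, adjusted p = 0.0369; 0.114 without aged replicate 3). Both are uncertain, since 98.1% of the 31-base words of mt-Nd3 and 99.9% of those of mt-Co3 also occur in another annotated gene, mostly a nuclear copy (Gm28438 for mt-Nd3, Gm28437 for mt-Co3). The sum of mt-Nd3 and Gm28438 was 13874 ± 1987 in the aged and 24611 ± 7474 in the adult western-diet hearts (SD, n = 4 each), and the sums of the 2 groups overlapped at adult western-diet replicate 4 (15801, against up to 16639 in the aged hearts). The sum of mt-Co3 and Gm28437 was 55587 ± 4374 against 111270 ± 36538, without overlap. Of the 13, 11 differences were below 0, with a median of -0.36 that became 0.04 under quantile normalization. The share of mitochondrially encoded transcripts per library moved with the groups, and its part in these differences was not tested.

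Nuclear genes of the respiratory chain were not called. None of 36 complex I subunits, 27 subunits of complexes II, III and IV and 16 of ATP synthase passed the test, with medians of -0.13, -0.15 and -0.14. The members of smallest p were Ndufc2 of complex I (167 ± 11.5 against 241 ± 54.7; adjusted p = 0.101) and Cycs, cytochrome c (70.7 ± 9.51 against 99.4 ± 17.9; adjusted p = 0.0880). The groups overlapped for both. At an unadjusted p under 0.05 there were 2, 1 and 0 members lower and 0, 0 and 0 higher in these 3 lists. Within the 6 hearts with Y-linked transcripts the 3 medians were -0.02, 0.00 and -0.03.

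Clock genes differed in opposite directions by arm. Of 6 activators and their drivers 2 were lower in the aged hearts and none higher; of 10 repressors 5 were higher and none lower; of 6 outputs 3 were higher and none lower. Of all genes 1.25% were called higher and 0.885% lower. All 8 hearts were collected at hours the labels do not give, so the hour of collection could not be tested, and hour and group cannot be told apart. Arntl, the activator Bmal1, stood at 1.52, 0.912, 1.58 and 0.914 scaled TPM in the aged hearts and 6.04, 4.08, 3.37 and 4.69 in the adult western-diet hearts (-1.31 ± 0.18 (SE), adjusted p = 0.00219). Npas2, its partner, stood at 0.357, 0.299, 0.340 and 0.503 against 1.20, 1.16, 1.33 and 0.900 (-0.64, adjusted p = 0.0180). Both groups were apart for each gene, and the Npas2 call ended without aged replicate 3 (adjusted p = 0.0581).

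Among the repressors, Ciart, which binds the activator pair, was at 3.44, 8.77, 5.81 and 5.80 in the aged and 1.74, 2.46, 1.88 and 3.32 in the adult western-diet hearts (1.02, adjusted p = 0.0158). Aged replicate 1 was the lowest of its group and lay just above the highest adult western-diet heart. Per2, a period protein, was at 0.845, 1.05, 1.10 and 1.40 against 0.312, 0.165, 0.182 and 0.530 (0.70, adjusted p = 0.0263), and its relative Per3 at 2.42, 3.35, 2.97 and 2.94 against 1.53, 0.534, 1.21 and 1.22 (0.90, adjusted p = 0.0426). Nr1d1 (REV-ERBα), which represses Arntl, was at 38.3, 34.1, 34.1 and 40.5 against 28.8, 25.8, 20.3 and 15.6 (0.71, adjusted p = 0.0263). Bhlhe41 (DEC2), which competes for the activators' sites, was at 3.73, 4.64, 6.30 and 5.26 against 2.75, 2.999, 3.63 and 2.79 (0.55, adjusted p = 0.0441). Each of these 5 calls ended in some omission: without aged replicate 4 the adjusted p was 0.0585 for Ciart, 0.0980 for Per2 and 0.0947 for Nr1d1, without adult western-diet replicate 2 it was 0.131 for Per3, and without aged replicate 3 it was 0.142 for Bhlhe41.

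The outputs Dbp, Tef and Hlf are related transcription factors that bind the D-box and carry the clock's rhythm to metabolic genes. Dbp (chromosome 7, 45705088 to 45710203, plus strand) was at 7.21, 11.1, 7.18 and 8.01 in the aged and 3.10, 3.87, 3.28 and 1.37 in the adult western-diet hearts (1.29 ± 0.22 (SE), adjusted p = 0.0118). Hlf was at 4.67, 4.79, 4.49 and 4.56 against 1.87, 1.34, 2.08 and 2.60 (0.94 ± 0.14 (SE), adjusted p = 0.00365), with the aged hearts within a narrow range. Tef was at 36.4, 46.5, 34.9 and 39.7 against 22.1, 20.7, 29.1 and 27.4 (0.65, adjusted p = 0.0268; 0.0943 without aged replicate 4). The calls of Arntl, Dbp and Hlf held in every omission. In the libraries with Y-linked transcripts alone those of Arntl and Hlf ended and that of Dbp stayed. Medians were -0.31 over the activators, 0.62 over the repressors and 0.74 over the outputs, beside 0.00 over all genes.

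The other hearts extend the order. In C57 hearts Arntl averaged 0.418 ± 0.246, Dbp 14.8 ± 2.63, Hlf 7.75 ± 1.68 and Per2 2.07 ± 0.207 (SD, n = 3), farther from the adult western-diet hearts than the aged hearts without diet were. Aged hearts on the diet averaged 2.16 ± 0.654 for Arntl, 8.06 ± 2.02 for Dbp, 3.27 ± 0.490 for Hlf and 1.54 ± 0.521 for Per2 (n = 5). For Arntl their range, like that of the aged hearts without diet, lay below all 4 adult western-diet hearts.

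**Figure D4:**
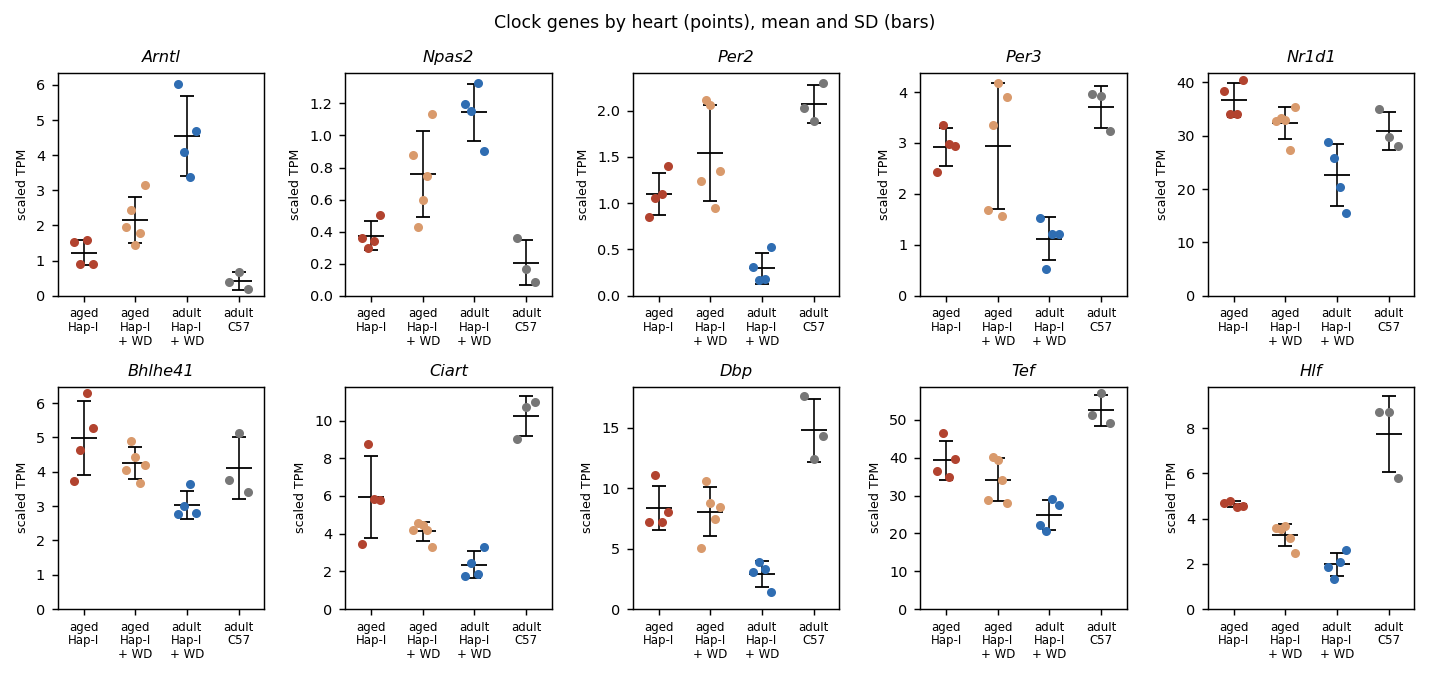
Scaled TPM (y axes, from 0) of 10 called clock genes in the 16 hearts by group; WD is the western diet, points are hearts, and bars give the mean and SD. Mean Arntl and Npas2 are highest in the adult western-diet hearts and lowest in C57 hearts; the 5 repressors and 3 outputs are lower in all 4 adult western-diet hearts than in all 4 aged hearts without diet.

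The activator pair binds the E-box CACGTG, and the output factors bind the D-box, TTATGTAA or TTATGCAA. Both were searched on both strands in the 250 bases before the start of the 8 called repressors and outputs, of which 7 had a promoter in the RefSeq table. CACGTG was found in 3 of the 7, Ciart, Bhlhe41 and Tef, and in 6.86% of the promoters of 27025 genes. Of all 16 tested repressors and outputs 13 had a promoter, and 5 of these held CACGTG, the uncalled Cry1 and Per1 among them. Lipe, called lower, held it too, so it was not particular to genes called higher. A D-box was found in 1 of the 7, Per3, in 2 of the 13, Per3 and the uncalled Per1, and in 1.79% of all. These stretches are shown since they hold the letters through which the arms are known to connect (GRCm38.p6, gene strand, matches in capitals): Ciart with 3 matches (minus strand, chr3:95882237-95882374), Bhlhe41 with 1 (minus strand, chr6:145865538-145865603), Tef with 1 (plus strand, chr15:81802516-81802581) and Per3 with 2 D-boxes (minus strand, chr4:151044786-151044900).
Ciart: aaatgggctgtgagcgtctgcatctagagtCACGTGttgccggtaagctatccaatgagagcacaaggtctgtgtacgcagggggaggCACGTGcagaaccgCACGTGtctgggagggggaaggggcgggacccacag
Bhlhe41: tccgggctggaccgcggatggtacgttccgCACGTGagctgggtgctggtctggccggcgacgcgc
Tef: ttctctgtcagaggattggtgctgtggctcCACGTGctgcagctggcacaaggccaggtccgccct
Per3: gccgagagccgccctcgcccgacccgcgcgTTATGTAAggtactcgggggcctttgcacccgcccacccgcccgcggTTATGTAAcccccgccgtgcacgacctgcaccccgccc
Neither called activator held either motif in this window, and nothing about the factors follows from that.

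Myh6, Myom2 and Synpo2l of the contractile apparatus, the junction gene Dsp and the splicing factor Rbm20 were higher in the aged hearts. Myh6 (chromosome 14, 54941921 to 54966927, minus strand), the fast myosin heavy chain of adult mouse heart, stood at 1065, 924, 1412 and 1365 scaled TPM in the aged and 423, 324, 419 and 802 in the adult western-diet hearts (1.34 ± 0.33 (SE), adjusted p = 0.0469). Adult western-diet replicate 4 was the highest of its group and the nearest to the aged hearts, and the call ended without adult western-diet replicate 2 (adjusted p = 0.143). Myom2, which links myosin filaments in the M band, stood at 336, 301, 284 and 332 against 218, 126, 156 and 166 (0.93, adjusted p = 0.0284). Synpo2l, an actin-binding protein of the Z disc, stood at 29.4, 30.5, 31.5 and 31.8 against 21.5, 14.7, 17.7 and 17.99 (0.76, adjusted p = 0.0152). Of 23 members of the sarcomere list 3 were called, all higher, with a median of 0.12. Dsp, desmoplakin, which anchors desmin to the desmosome, stood at 112, 104, 121 and 128 against 58.98, 61.4, 66.5 and 85.6 (0.78, adjusted p = 0.0263), 1 of 12 intercalated disc genes. Rbm20, the splicing factor of titin, stood at 37.8, 36.8, 41.8 and 45.7 against 25.7, 27.1, 29.8 and 29.2 (0.52, adjusted p = 0.0304).

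Without aged replicate 4 the adjusted p was 0.0947 for Myom2, 0.0584 for Synpo2l, 0.0947 for Dsp and 0.106 for Rbm20. With the correction for transcript length the log2 difference was 0.35 for Rbm20 (adjusted p = 0.109), 0.52 for Dsp (0.0380), 0.61 for Synpo2l (0.0254), 0.96 for Myom2 (0.0308) and 1.40 for Myh6 (0.0612), so the calls of Rbm20 and Myh6 ended. That of Myh6 ended too with the Y-linked covariate (adjusted p = 0.0919) and with the atrial markers as a covariate (0.0646). Without scaling Rbm20 was at 0.86 (adjusted p = 0.0611). Markers of ventricular muscle were abundant in all 8 hearts, and the summed level of the 16, from 56401 to 70636 in the aged and 55293 to 70837 in the adult western-diet hearts, did not separate the groups. In bulk tissue fewer cells of a type and less RNA per cell cannot be told apart.

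Stress and fetal genes of the heart were not called apart from Myh6, itself in that list of 15 as the adult isoform. Myh7, the slow and fetal myosin heavy chain, stood at 39.98, 44.4, 54.5 and 49.9 against 43.9, 16.03, 15.6 and 20.9 (1.06, adjusted p = 0.160), with adult western-diet replicate 1 at the level of the aged hearts and the other 3 below them. Of the 31-base words of Myh7 27.9% also occur in another gene, and of those of Myh6 29.2%. Nppb, brain natriuretic peptide, stood at 249, 219.6, 229 and 216 against 150.1, 311, 91.4 and 47.7 (adjusted p = 0.315). Nppa, atrial natriuretic peptide, stood at 474, 93.5, 2876 and 111 against 489, 123, 30.4 and 467 (adjusted p = 0.625) and is itself 1 of the 9 atrial markers. The summed level of these 9, Nppa included, ran from 116 to 5152 in the aged and from 57.7 to 1198 in the adult western-diet hearts. Apart from Nppa, Myl7 stood at 165, 1.06, 1133 and 2.44 against 397, 0.972, 0.735 and 113. Myl4 stood at 142, 1.92, 826 and 3.61 against 223, 3.02, 2.34 and 71.1. Nppa, Myl7, Myl4 and the sum were highest in aged replicates 3 and 1 and in adult western-diet replicates 1 and 4. Not every marker had this order. Bmp10 was at 0 in adult western-diet replicate 1, and Stard10 was higher in aged replicate 4 than in aged replicate 1.

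Cntn2 and Hcn4, markers of the conduction system, were higher in the aged hearts. Cntn2, an adhesion protein of the Purkinje network, was at 2.42, 2.46, 2.86 and 2.58 in the aged hearts and 0.651, 0.126, 0.164 and 0.875 in the adult western-diet hearts (1.33 ± 0.17 (SE), adjusted p = 0.00153), a call that held in every omission. It averaged 0.570 ± 0.353 in aged hearts on the diet and 2.44 ± 0.332 in C57 hearts. Hcn4, the pacemaker channel, was at 2.48, 1.98, 2.05 and 2.23 against 1.44, 1.09, 1.39 and 1.37 (0.46, adjusted p = 0.0426; 0.131 without adult western-diet replicate 2, and 0.46 became 0.24 with the length correction). Of 6 tested markers these 2 were called, the median was 0.64, and the summed level of all 10 ran from 9.74 to 24.1 in the aged and 4.52 to 8.46 in the adult western-diet hearts, while Vsnl1 was at 0 in all 8. With the atrial markers as a covariate the difference was 1.32 for Cntn2 (adjusted p = 0.00240) and 0.46 for Hcn4 (0.0595). Pvalb, parvalbumin of fast skeletal muscle, was at 1.01, 1.01, 0.841 and 0.898 against 0.209, 0.138, 0.0357 and 0.0407 (0.81, adjusted p = 0.0180; 0.0593 without aged replicate 4), and the skeletal myosins Myh1, Myh2 and Myh4 were at or below 0.167 in all 8 hearts.

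**Figure D5:**
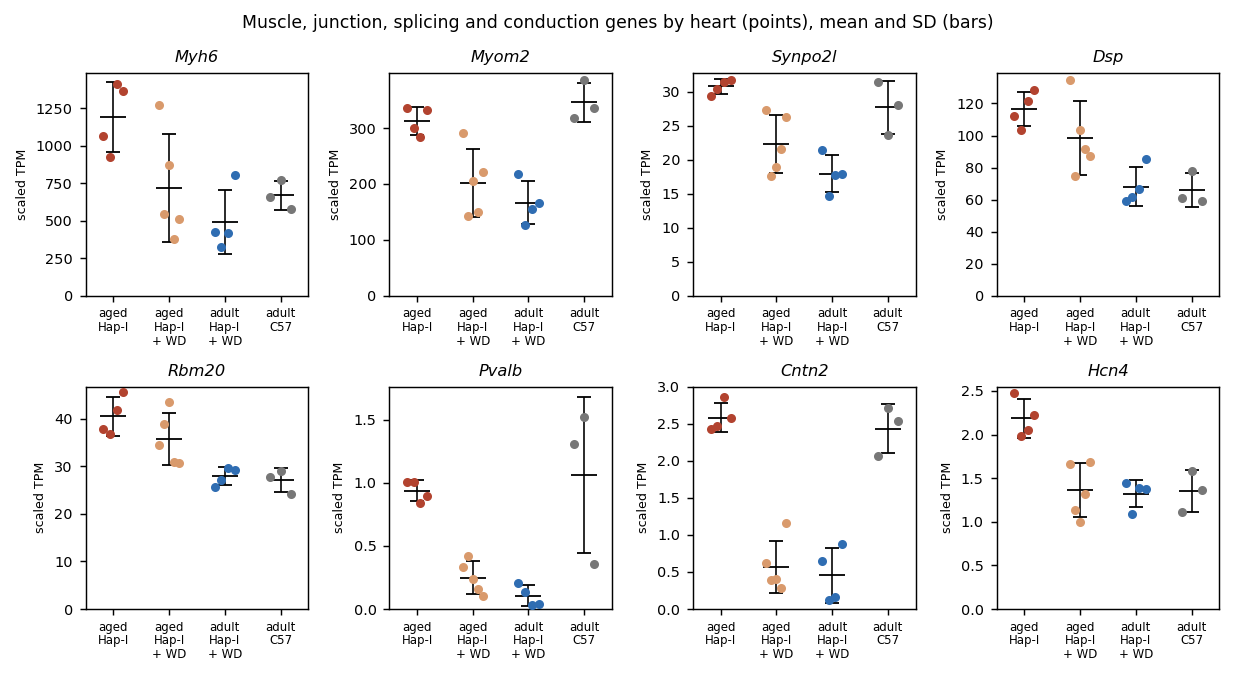
Scaled TPM (y axes, from 0) of 8 muscle, junction, splicing and conduction genes in the 16 hearts by group; WD is the western diet, points are hearts, and bars give the mean and SD. Each of the 8 is higher in all 4 aged hearts without diet than in all 4 adult western-diet hearts, and the values of Cntn2 in C57 hearts overlap those in aged hearts without diet.

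Signalling genes gave few calls. Gnb3, a β subunit of heterotrimeric G proteins, was at 6.27, 7.13, 5.44 and 5.95 in the aged and 2.75, 3.30, 2.59 and 1.87 in the adult western-diet hearts (1.00 ± 0.14 (SE), adjusted p = 0.00341), and its call held in every omission. Adra1b, an α1 adrenergic receptor, was lower in the aged hearts, at 11.002, 10.1, 12.1 and 11.04 against 16.6, 15.7, 18.8 and 14.6 (-0.53, adjusted p = 0.0489; 0.132 without adult western-diet replicate 3; -0.20 without scaling, adjusted p = 0.444), the only one called of 22 genes in its list. None of 19 calcium handling genes was called (6 higher and 1 lower at an unadjusted p under 0.05); 5 were apart and higher and 2 apart and lower, beside 8.39% and 7.6% of all genes. Camk2d, the calcium-dependent kinase of heart muscle, averaged 36.5 ± 3.79 against 26.1 ± 3.41 (adjusted p = 0.0832), and Pln, the inhibitor of the calcium pump, 1519.5 ± 105 against 2093 ± 334 (adjusted p = 0.110; SD, n = 4 each). Of the words of Pln 59.6% are shared, 55.5% with Gm47644, so its level is uncertain.

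None of 11 tested genes of the mouse's own renin-angiotensin system was called by limma (4 higher and 0 lower at an unadjusted p under 0.05), with a median of 0.34. Agtr1a, the mouse type 1 receptor, stood at 16.1, 17.2, 14.9 and 19.02 in the aged and 14.4, 12.4, 12.7 and 10.4 in the adult western-diet hearts, apart between the groups (0.40, adjusted p = 0.116). Ace, the angiotensin-converting enzyme, stood at 12.2, 11.7, 11.97 and 10.96 against 5.10, 3.07, 6.43 and 11.4 (0.88, adjusted p = 0.155), and Agt, angiotensinogen, at 0.882, 0.749, 0.707 and 0.680 against 0.770, 0.520, 0.560 and 1.14 (0.02, adjusted p = 0.951). Levels of the human receptor were not analysed here.

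No matrix gene of the collagen list was called. Of 33 collagen, basement membrane and fibrosis genes 30 differences were above 0 and 11 were apart and higher, with a median of 0.49, beside 8.39% of all genes apart and higher; none passed the adjusted limma test, and 10 higher and 0 lower had an unadjusted p under 0.05. Col1a1, of fibrillar collagen, was at 9.45, 8.31, 10.03 and 8.96 against 7.82, 2.96, 5.96 and 8.22 (0.56, adjusted p = 0.417) and Col3a1 at 53.7, 50.8, 64.8 and 57.5 against 58.8, 23.7, 38.6 and 63.4 (0.38, adjusted p = 0.616). Adult western-diet replicate 2 was the lowest of the 8 hearts for both. Members of smallest p were the laminins Lamb2 (51.2 ± 3.16 against 31.8 ± 7.34; adjusted p = 0.112) and Lama2 (5.68 ± 0.884 against 3.18 ± 1.40; adjusted p = 0.121) and nidogen Nid2 (2.34 ± 0.340 against 0.988 ± 0.591; adjusted p = 0.119). Timp3, a metalloproteinase inhibitor bound to the matrix, was at 35.1, 40.3, 40.1 and 33.7 against 21.4, 12.1, 15.8 and 31.4 (0.94, adjusted p = 0.0515), and Ltbp1, which holds latent TGF-β in the matrix, had an adjusted p of 0.0817. The summed level of 15 fibroblast markers, from 703 to 935 in the aged and 436 to 835 in the adult western-diet hearts, overlapped.

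Called matrix and vessel genes went both ways. Ccn5, a matricellular protein, was at 7.58, 4.67, 4.82 and 3.64 against 2.003, 1.55, 2.48 and 2.16 (0.99, adjusted p = 0.0370), and C7, a component of the complement attack complex, at 4.46, 4.91, 8.78 and 5.25 against 0.287, 0.253, 1.28 and 2.40 (1.83 ± 0.34 (SE), adjusted p = 0.0152), 1 of 17 complement genes. Cspg4 (NG2), a pericyte proteoglycan, was at 1.61, 1.06, 1.66 and 1.58 against 0.416, 0.249, 0.439 and 0.619 (0.79, adjusted p = 0.0263), and 14 of 15 smooth muscle and pericyte markers had a difference above 0. Mfap5, a microfibril protein, was lower at 9.001, 9.23, 12.8 and 9.97 against 17.6, 18.5, 15.96 and 13.5 (-0.63, adjusted p = 0.0198; -0.31 without scaling, adjusted p = 0.297). Cldn5, the tight junction protein of endothelium, was lower at 8.02, 7.07, 7.82 and 7.01 against 18.6, 18.4, 13.7 and 11.6 (-0.94, adjusted p = 0.0162; -0.63 without scaling, adjusted p = 0.0954), while the median of the 15 endothelial markers was 0.25. Ccl21a, a lymphatic chemokine, was lower at 21.7, 21.98, 24.6 and 19.4 against 48.5, 36.1, 39.5 and 27.1 (-0.73, adjusted p = 0.0188; -0.40 without scaling, adjusted p = 0.185); 80.6% of its words occur in near-identical copies. These 6 calls ended in some omission: without aged replicate 4 the adjusted p was 0.0945 for Cspg4, 0.0757 for Mfap5, 0.0596 for Cldn5 and 0.0800 for Ccl21a, without aged replicate 3 it was 0.0565 for C7, and without adult western-diet replicate 2 it was 0.111 for Ccn5.

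Interferon-stimulated genes, the antiviral set switched on by type I interferon, did not pass the test. Of 31 tested, 29 differences were below 0 and 16 were apart and lower, with a median of -0.45, beside 7.6% of all genes apart and lower; limma called 0, and 4 lower and 0 higher had an unadjusted p under 0.05. Isg15, the ubiquitin-like product of this set, stood at 4.69, 3.40, 4.15 and 4.38 in the aged and 6.25, 14.4, 6.89 and 14.1 in the adult western-diet hearts (-1.07 ± 0.47 (SE), adjusted p = 0.209), and Ifitm3, a membrane restriction factor, at 77.2, 74.03, 77.5 and 73.9 against 107, 188, 119 and 139 (-0.82 ± 0.27 (SE), adjusted p = 0.114). The aged hearts lay close together and the adult western-diet hearts were spread. With the Y-linked covariate the list's median was -0.88, and in the 6 hearts with Y-linked transcripts it was -0.55. Isg15 averaged 18.8 ± 15.4 in aged hearts on the diet and 10.4 ± 3.77 in C57 hearts, so the mean of the aged hearts without diet was the lowest of the 4 groups. Genes of MHC class I antigen presentation were not called, among them B2m (193 ± 13.1 against 276 ± 69.2; adjusted p = 0.279) and the immunoproteasome subunit Psmb8 (adjusted p = 0.155).

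Of 17 immediate early genes 1 was called, and the list of nuclear factor κB and acute inflammation had no called member. Klf2, a flow-responsive transcription factor of endothelium, was lower at 10.2, 14.6, 10.6 and 10.5 against 22.8, 20.6, 18.7 and 20.4 (-0.81, adjusted p = 0.0426; 0.123 without aged replicate 4), and the median of its list, the immediate early genes, was -0.44. Without scaling Klf2 was at -0.48 (adjusted p = 0.133). Asns, asparagine synthetase of the amino acid response, was lower at 0.937, 0.745, 1.05 and 0.850 against 1.52, 2.13, 1.52 and 2.19 (-0.58, adjusted p = 0.0352; 0.111 without adult western-diet replicate 2), and Srxn1, which repairs oxidized peroxiredoxin, at 7.07, 6.81, 6.06 and 6.30 against 8.45, 9.30, 9.86 and 8.89 (-0.42, adjusted p = 0.0496; 0.152 without aged replicate 3; -0.12 without scaling, adjusted p = 0.593). Not called were Cdkn1a, the cell cycle inhibitor p21 (-0.88, adjusted p = 0.0852), the NF-κB inhibitor Nfkbia (-0.53, adjusted p = 0.0924) and Lcn2 (-0.66, adjusted p = 0.0832). The neutrophil gene S100a8 was at 1.56, 1.41, 0.976 and 0.800 in the aged and 3.20, 23.7, 2.58 and 2.12 in the adult western-diet hearts, highest in adult western-diet replicate 2, as was the sum of the erythroid markers, 8409 there against 2284 to 3992 in the aged hearts. The part of blood in these values was not tested. All 52 cytosolic ribosomal protein genes had a difference below 0, with a median of -0.25; limma called none (6 at an unadjusted p under 0.05), and in the 6 hearts with Y-linked transcripts the median was -0.03. Rps25 (-0.42, adjusted p = 0.0703) had the smallest p of them. Ccnd2, cyclin D2, was higher at 19.8, 17.7, 22.6 and 22.4 against 11.9, 13.3, 10.5 and 12.7 (0.72, adjusted p = 0.0151; 0.0593 without aged replicate 4), 1 of 13 proliferation genes.

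The rest of the genes with the largest called differences have varied roles. Tusc3, a subunit of the oligosaccharyltransferase of the endoplasmic reticulum, was at 6.40, 5.84, 6.49 and 8.74 in the aged and 0.803, 0.365, 4.82e-05 and 4.65 in the adult western-diet hearts (2.01 ± 0.47 (SE), adjusted p = 0.0419). Adult western-diet replicate 4 was close to the aged hearts, the other 3 far below them. Abat, the transaminase that breaks down GABA, was at 9.32, 7.10, 9.68 and 7.65 against 2.79, 2.32, 2.81 and 6.64 (1.10, adjusted p = 0.0174), again with adult western-diet replicate 4 nearest to the aged hearts. Chd6, a chromatin remodeller, was at 5.34, 5.48, 5.72 and 5.71 against 2.02, 2.19, 2.39 and 3.09 (0.95, adjusted p = 0.0152), Ccdc141, a coiled-coil protein, at 36.9, 32.1, 38.9 and 35.9 against 19.8, 17.7, 19.1 and 23.4 (0.82, adjusted p = 0.00654), and Pbxip1, a partner of PBX homeodomain proteins, at 23.3, 21.996, 28.2 and 22.2 against 14.4, 9.64, 11.7 and 16.5 (0.85, adjusted p = 0.0445). Lower in the aged hearts were Gchfr, the feedback inhibitor of tetrahydrobiopterin synthesis, at 4.23, 4.21, 3.52 and 3.85 against 9.14, 13.7, 10.4 and 5.14 (-1.03, adjusted p = 0.0445), Lysmd2, a LysM domain protein, at 3.29, 3.94, 4.35 and 3.67 against 8.46, 8.75, 6.83 and 5.65 (-0.80, adjusted p = 0.0102; -0.50 without scaling, adjusted p = 0.0678), and the predicted gene Gm826, at 9.26, 8.59, 6.37 and 8.35 against 13.6, 20.3, 21.1 and 20.4 (-1.11, adjusted p = 0.0102). Ccdc141, Lysmd2 and Gm826 held their calls in every omission. Without aged replicate 4 the adjusted p was 0.123 for Tusc3 and 0.0584 for Chd6, without aged replicate 3 it was 0.0615 for Abat and 0.139 for Pbxip1, and without adult western-diet replicate 2 it was 0.135 for Gchfr.

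Some differences lay between near-identical genes. Gm4737 (chromosome 16, 46152985 to 46155077, minus strand) was listed at 0 in all 4 aged hearts and at 7.66, 7.72, 12.2 and 8.79 in the adult western-diet hearts (adjusted p = 4.74e-11), and it was also listed at 0 in all 5 aged western-diet and all 3 C57 hearts. Gm4737 thus passed the filter only through the adult western-diet hearts, and the other groups had no spread. Its p is therefore no support of its own. Of its 31-base words 95.6% occur elsewhere, 93.2% of all its words in Ahcy, the hydrolase of S-adenosylhomocysteine. Ahcy ran the other way, at 10.8, 10.9, 9.87 and 10.1 in the aged and 4.76, 4.22, 0.523 and 5.08 in the adult western-diet hearts (1.48, adjusted p = 0.0246; 0.0810 without aged replicate 4). The sum of both genes was 10.4 ± 0.488 in the aged and 12.7 ± 0.819 in the adult western-diet hearts (SD, n = 4 each), so the sum differed in the opposite direction to Ahcy alone. Eif3j2, a copy of a translation initiation factor subunit, was lower at 6.68, 8.56, 8.56 and 9.995 against 18.3, 19.4, 15.9 and 17.7 (-1.002, adjusted p = 0.00188, held in every omission), and 94.9% of its words are shared, mostly with Eif3j1; the sum of the pair was 17.8 ± 1.38 against 24.96 ± 1.65. Entpd4, a nucleotidase of the Golgi, was higher at 35.5, 34.6, 55.8 and 36.7 against 16.1, 20.7, 19.9 and 23.5 (0.97, adjusted p = 0.0341; 0.112 without aged replicate 3), with every word shared with Entpd4b and a sum of 59.02 ± 11.9 against 30.9 ± 3.38. The predicted genes Gm17132 (1.27, adjusted p = 0.0208; 0.0904 without aged replicate 4) and Gm16199 (-0.76, adjusted p = 0.0180; 0.0760 without aged replicate 4; -0.42 without scaling, adjusted p = 0.0916) share 81.4% and 100% of their words, and their levels are uncertain.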

How the data were processed

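The authors deposited a table of TPM values for all 16 heart libraries, per the file headers; the submitters' processing notes name kallisto, which shares reads of near-identical transcripts out by estimation, and the build GRCm38, without versions. TPM keep no depth, so the depth is unknown and the errors given are spreads between animals (the design text counts animals per group). Library totals were 942090 to 959772.

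Of 30153 genes (29732 with a symbol, 421 without), 11415 passed the filter and were divided by median-of-ratios factors (0.682 to 1.24). limma 3.58.1 (R 4.3.3) was fitted to log2(scaled TPM + 1) with 4 group means over all 16 libraries and a variance trend, after a test on simulated data; p-values are two-sided and adjusted by Benjamini-Hochberg over all genes tested. This scale understates fold changes of low genes. Errors are SD for scaled TPM and SE for log2 differences.

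The members and the 70 gene lists were chosen with earlier results of these data known. Named genes are the 15 largest called differences each way among genes whose groups do not overlap and whose higher mean is at least 5 scaled TPM, up to 6 called members per list by p, and a fixed set with the receptor, its ligand, natriuretic peptides, Myh7 and 2 collagens; of lists without a call some of the up to 3 members of smallest p are given. Some genes that the rule takes in are not reported here. Shared words are 31-base words of GENCODE M21 transcripts. Alternatives were other scalings, pseudocounts of 0.5 and 0.1, other filters, limma options, covariates, a length correction, stricter thresholds and the omission of each of the 8 libraries.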

Additional observations from a re-analysis of the deposited data

Results flagged for a closer look

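For each tested gene described singly in the text and 4 library properties, 95 measures in all, the 4 hearts of each group were examined for 1 heart far from the other 3, by the gap to its neighbour over the group's range. Groups listed at 0 throughout were left out. Of 188 groups 15 had such a heart (7.98%), where chance gives about 1 in 20. In aged replicate 1 it was Slc25a22, highest at 9.86 scaled TPM. In aged replicate 2 they were Klf2, highest at 14.6, and Cspg4, lowest at 1.06. In aged replicate 3 they were Entpd4, highest at 55.8, Nppa, highest at 2876 with the atrial markers, Adipoq, highest at 4.53, and Slc2a1, lowest at 4.68. In aged replicate 4 they were Gm17132, highest at 16.2, and the mitochondrially encoded share, highest at 36.5%. In adult western-diet replicate 1 they were Gm826, lowest at 13.6, and Hsd17b11, highest at 30.5. In adult western-diet replicate 2 it was S100a8, highest at 23.7. In adult western-diet replicate 4 they were Abat, highest at 6.64, Mtor, highest at 8.39, and Nfkbia, highest at 15.5. For Abat and Gm826 the heart that stood apart was the one of its group nearest to the other group; Slc25a22, Klf2, Cspg4 and Slc2a1 showed the same.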

How the results depend on the processing

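Replicates carry no numbers in the labels and were numbered in accession order. No paired analysis was possible because these numbers pair no animals. Against 244 genes called (143 higher, 101 lower), omission of 1 heart gave 38 to 737 (18 to 436 higher, 20 to 301 lower). Without scaling 162 were called (13 lower), and without the mitochondrial transcripts 66 (50 higher, 16 lower). A filter at 5 TPM gave 137 (74 and 63) and no filter 165 (89 higher, 76 lower). The Y-linked covariate gave 78 (46 and 32), this with the length correction 62 (32 and 30), and the hearts with Y-linked transcripts alone 12 (6 and 6). Only the 8 hearts compared gave 422 (253 and 169) and library weights 3042 (1642 and 1400). At an adjusted p under 0.01 there were 22 (9 and 13), and 29 (14 and 15) with at least 2-fold. Higher calls were 58.6% of the total, 92% without scaling, 75.8% without mitochondrial transcripts and 53.6% under quantile normalization. Pseudocounts, quantile normalization, the length correction, the atrial covariate, no variance trend and robust empirical Bayes kept the total within 1.5 times. All 57 named called genes kept their direction in every alternative, 26 their call with the Y-linked covariate and 7 in the hearts with Y-linked transcripts. Not called in any case, Nppa went from 1.003 to -0.014 without aged replicate 3 (up to 1.63 without aged replicate 2). Agt (0.02) went to -0.0025 with the atrial covariate, -0.0026 with the length correction, -0.13 with both length and Y-linked terms, -0.058 in hearts with Y-linked transcripts, -0.0695 under quantile normalization and -0.12 with the Y-linked covariate, and from -0.043 to 0.12 over omissions. The causes were not tested, and TPM without depth limit what low levels can show.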

Other observations

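Some transcripts had 1 group far from another; they were singled out after their values were seen. Gm4737, described above, was listed at 0 in the 12 hearts outside the adult western-diet group. Pcna-ps2 (chromosome 19, 9283380 to 9284160, plus strand), a processed pseudogene of a replication clamp, was at 2.79, 2.19, 4.05 and 2.83 scaled TPM in the adult western-diet hearts and listed at 0 in the 4 aged hearts. It was also at 0 in all aged hearts on the diet and at 0, 0.141 and 0 in C57 hearts. The share of its words that other genes hold was not measured, so its level is uncertain. Gm16867 (chromosome 14, 69363504 to 69503362, minus strand) was at 2.51, 2.06, 4.11 and 2.53 in the aged hearts and 0.357, 0.502, 0.242 and 0.384 in the adult western-diet hearts; it overlaps the end of Entpd4 on the same chromosome, and 25.2% of the words of Entpd4 occur in it. Wdfy1 (chromosome 1, 79702262 to 79776143, minus strand), an endosomal protein, was at 0.806, 1.19, 0.739 and 1.36 in the aged and 3.72, 3.92, 4.03 and 4.12 in the adult western-diet hearts, and averaged 3.79 ± 0.887 in aged hearts on the diet and 3.22 ± 0.0841 in C57 hearts. All coordinates are on GRCm38.

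The lists that follow had no called member, except 1 in the oxidant and antioxidant list. All 8 tested replication-dependent histone genes had a difference below 0 (median -0.30), of which 3 were apart and lower, beside 7.6% of all genes; limma called 0 of them (4 lower and 0 higher at an unadjusted p under 0.05). Of 30 genes of oxidant production and antioxidant defence 24 were below 0 (median -0.17), with Srxn1 the called member. Of 25 autophagy genes 21 were below 0 (median -0.10), and of 17 branched-chain amino acid genes 13 were above 0 (median 0.22). The autophagy and antioxidant medians have the opposite sign without scaling, and hold theirs relative to the median of all genes. Macrophage markers summed to 192 to 214 in the aged and 188 to 249.96 in the adult western-diet hearts, overlapping.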
